A study of Mus musculus with 32 samples.

Results

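The mRNAs that Leydig cells translate were compared with the RNA of the whole testis, on 6 of the 32 arrays of the series. These were 3 anti-HA immunoprecipitates (IP 1 to 3) and 3 inputs (input 1 to 3) of saline-treated Cyp17iCre: RiboTag mice, chosen by their sample titles alone. The mice carried 1 copy each of Cyp17iCre, whose regulatory sequences come from the gene of the steroidogenic enzyme Cyp17a1, and of RiboTag, an allele that gives a ribosomal protein a hemagglutinin (HA) tag once Cre has acted. The tag lets an antibody pull down polysomes of the Cre-expressing cells from a testis homogenate, and the input is RNA of the same kind of homogenate before the pull-down. No hormone was given to either group, and the labels state no age for the mice. Staining for HA in the study marked the interstitium and also scattered cells inside the tubules, so the IP is not purely of Leydig cells by construction. The study took these scattered cells to be Sertoli cells, from its mRNA enrichment results. The same comparison in AMH-Cre: RiboTag mice (Sertoli cells, 5 IPs and 5 inputs, saline) is used below only to show where Leydig cells differ.

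Leydig cells lie between the seminiferous tubules and make testosterone from cholesterol. The first step cleaves the cholesterol side chain inside mitochondria, and the later steps run in the smooth endoplasmic reticulum. Several of these steps draw electrons from NADPH. The tubules hold Sertoli cells and the germ cells, which outnumber all somatic cells of the adult testis and build a tail, an acrosome and a compacted nucleus.

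Every value is a log2 signal of the deposited, normalized arrays, and enrichment is a ratio obtained as 2 to the power of the mean IP minus the mean input log2 signal. A gene was called enriched or depleted at a ratio of at least 2 in either direction and a Benjamini-Hochberg adjusted p under 0.05 in limma, the adjustment running over all 24705 probe sets whose linear signal passed 50 in at least 1 of the 6 arrays. With 1 probe set per gene, 15521 genes were tested, of which 1985 were enriched (12.8% of those tested) and 2017 were depleted (13%). The median ratio over all genes was 0.96. Arrays of 1 group correlated at 0.990 to 0.992 over probe sets and arrays of different groups at 0.864 to 0.876. The same amount of RNA went into each labeling, so a ratio compares shares of an RNA pool, and fewer cells of a type and less RNA per cell cannot be told apart. The study counts saline-treated mice as the replicates of this comparison, and the labels do not say which array came from which mouse. Each p-value reflects only the scatter among these samples.

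The label was borne out by its markers. Star, which carries cholesterol into mitochondria, had log2 signals of 12.48, 12.73 and 12.68 in the IPs and 9.15, 9.46 and 9.28 in the inputs, a 10.1-fold enrichment (standard error 0.11 on the log2 scale, limma adjusted p = 3.05e-07). The side-chain cleavage enzyme Cyp11a1 was enriched 8.34-fold, Hsd17b3, which makes testosterone, 9.15-fold, and the LH receptor Lhcgr 15.9-fold. The probe set of Lhcgr is named here only through the study's list of enriched transcripts. Cyp17a1 itself was enriched 3.32-fold, with IP signals of 13.54, 13.47 and 13.56 against 11.95, 11.50 and 11.93 in the inputs. Of 12 macrophage markers, 6 were depleted and none was enriched, with the lysozyme Lyz2 the lowest at a ratio of 0.173, and of 9 endothelial markers none was called. Of 8 peritubular myoid markers the myosin Myh11 was enriched (3.37), and the actins Acta2 (0.198) and Actg2 (0.270) were depleted. Of 16 Sertoli markers, 2 were enriched, the iron carrier Trf (2.89) and the defensin Defb19 (2.76), and the median of the list was 1.10. Depletion was called for 11 of 15 spermatogonial and spermatocyte markers and for 13 of 14 spermatid markers.

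The 2 directions differed in size. A ratio of 4 or more was reached by 632 enriched genes, of 8 or more by 131 and of 16 or more by 3, whereas depletion by 4-fold or more was seen for 289 genes and by 8-fold or more for 4. Among genes that the platform annotation names, which leaves out Lhcgr, the 15 with the largest enrichment ran from 19.9-fold to 12.7-fold. They were the kallikreins Klk1b22 and Klk1b24, the protease inhibitors Itih2, Fetub and Serpinb1a, the membrane skeleton protein Sptb, the esterases Ces1d and Pon3, the aldolase Aldoc, complement C2, the secreted proteins Lrg1, Bpifb5 and Spon1, the lysosomal protease Ctsh and the galactosidase-like Glb1l2. Sptb was enriched in Sertoli IPs as well (log2 ratio 3.17 there and 3.98 here), and the difference was not called. The study treats this transcript as recovered by the IP non-specifically, which was not tested here. The 15 with the largest depletion ran from a ratio of 0.113 to 0.151. Genes without a proper name are left out. They were Apobec4, Fam24b, Cypt12, Dusp21, Prss58, Tex35, Glipr1l1, Tppp2, Ppp4r3c-ps, Glipr1l2, Spaca5, Fam122c, the histone H2bl1, Prr27 and Arrdc5.

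**Figure D1:**
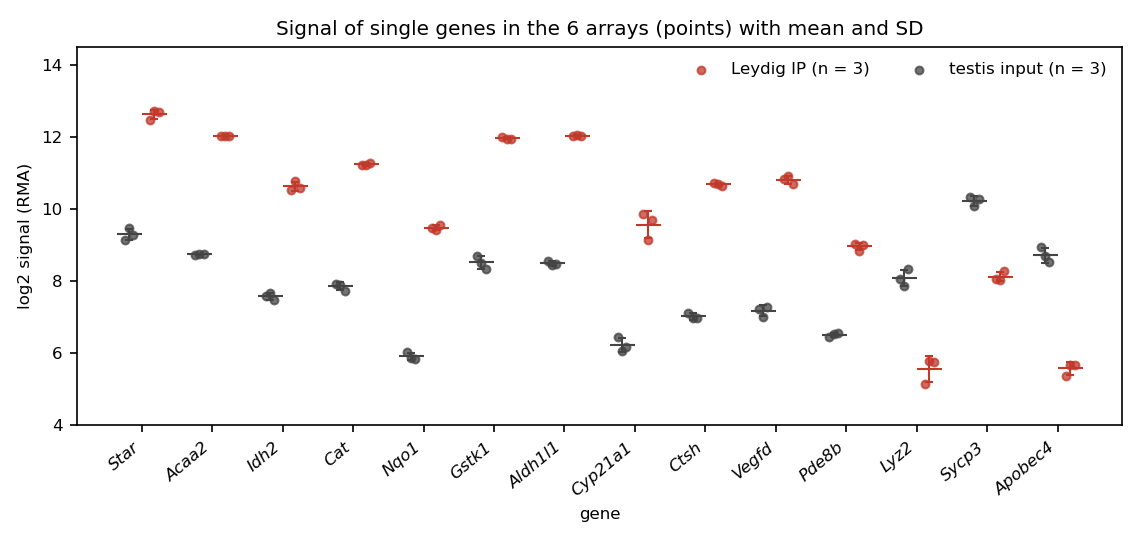
Log2 signal (RMA, vertical axis) of 14 genes in the 3 Leydig IPs (red) and the 3 testis inputs (black), each point 1 array, with the group mean and its SD. For each of the first 11 genes every IP lies above every input, and for Lyz2, Sycp3 and Apobec4 every IP lies below every input.

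Enzymes that burn fatty acids in mitochondria were enriched as a group. Of 18 genes of this pathway 15 were enriched and none depleted, against 12.8% and 13% of all genes tested, with a median ratio of 5.83. Acaa2, the thiolase that ends each round of the cycle, had signals of 12.03, 12.02 and 12.04 in the IPs and 8.72, 8.74 and 8.75 in the inputs, a 9.78-fold enrichment (standard error 0.065 on the log2 scale, limma adjusted p = 1.88e-07). The 2 groups of arrays did not overlap, and within each the signals were almost equal. The acyl-CoA dehydrogenases for medium and long chains, Acadm and Acadl, were enriched 9.22-fold and 9.02-fold, the isomerase Eci2 7.92-fold and the reductase Decr1, needed for unsaturated chains, 7.78-fold. Cpt1a, which controls the entry of fatty acids, was enriched 6.22-fold. The 3 genes without a call also had ratios over 1: Acad9 (1.94), Cpt2 (1.79) and Hadha, a subunit of the trifunctional protein (1.48).

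Genes listed for the supply of NADPH, the electron donor of steroid hydroxylation, moved the same way in 9 of 13 cases. None was depleted, and the median ratio was 3.91. The list also counts genes that do not make NADPH themselves, among them Tkt, Taldo1 and Pgls. Aldh1l1, which yields NADPH while oxidizing formyl-tetrahydrofolate, was enriched 11.7-fold (12.03, 12.06 and 12.02 in the IPs, 8.56, 8.43 and 8.48 in the inputs). The transketolase Tkt of the pentose phosphate pathway was enriched 10.8-fold. Both NADP-dependent isocitrate dehydrogenases passed, the mitochondrial Idh2 at 8.34-fold and the cytosolic Idh1 at 7.4-fold, and so did the phosphogluconate dehydrogenase Pgd at 4.39-fold. The mitochondrial transhydrogenase Nnt had a ratio of 1.99 and the malic enzyme Me3 0.895, and neither was called. In the electron chain that serves the mitochondrial P450 enzymes, ferredoxin Fdx1 was enriched 5.86-fold (11.23, 10.94 and 11.37 against 8.68, 8.49 and 8.72). Of 13 genes for electron supply and heme 11 were enriched, among them the heme synthesis enzyme Urod (3.32), the mitochondrial membrane protein Tspo (4.96), Cyb5r3 (4.22) and Cyb5a (3.48). Uros (0.704) and Hmox2 (0.525) were not called. Fdxr (8.07-fold) and Por (5.11-fold), which pass electrons to P450 enzymes, are named only through the study's list and are in no list count.

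Peroxisomal genes did not move as 1 group. Of 33, 13 were enriched, 2 were depleted and 18 had no call, with a median ratio of 1.56. The enriched members were led by enzymes: the phytanoyl-CoA hydroxylase Phyh (10.9-fold), catalase Cat (10.5-fold), Ehhadh (6.42-fold) and Amacr (5.97-fold), which handle branched and long-chain acyl groups, and the reductase Pecr (4.72-fold). Cat had signals of 11.21, 11.22 and 11.29 in the IPs and 7.92, 7.90 and 7.72 in the inputs. Several genes of peroxisome assembly had no call, among them Pex5 (1.44), Pex14 (0.978) and Pex13 (0.630), and Pex3 was depleted (0.446), as was the carnitine acetyltransferase Crat (0.426). The lipid droplet list was likewise split, with 7 of 19 enriched and 4 depleted. Hsd17b11, a dehydrogenase that sits on droplets, was enriched 9.31-fold, the cholesteryl ester hydrolase Nceh1 7.42-fold, the droplet coat protein Plin1 4.59-fold and the lysosomal lipase Lipa 4.22-fold. The lipases Lipe (0.419) and Pnpla2 (0.443), the triglyceride-forming Dgat2 (0.389) and Hilpda (0.368) were depleted. For Lipe the IP signals were 9.60, 9.60 and 9.58 and the input signals 10.86, 10.89 and 10.80.

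**Figure D2:**
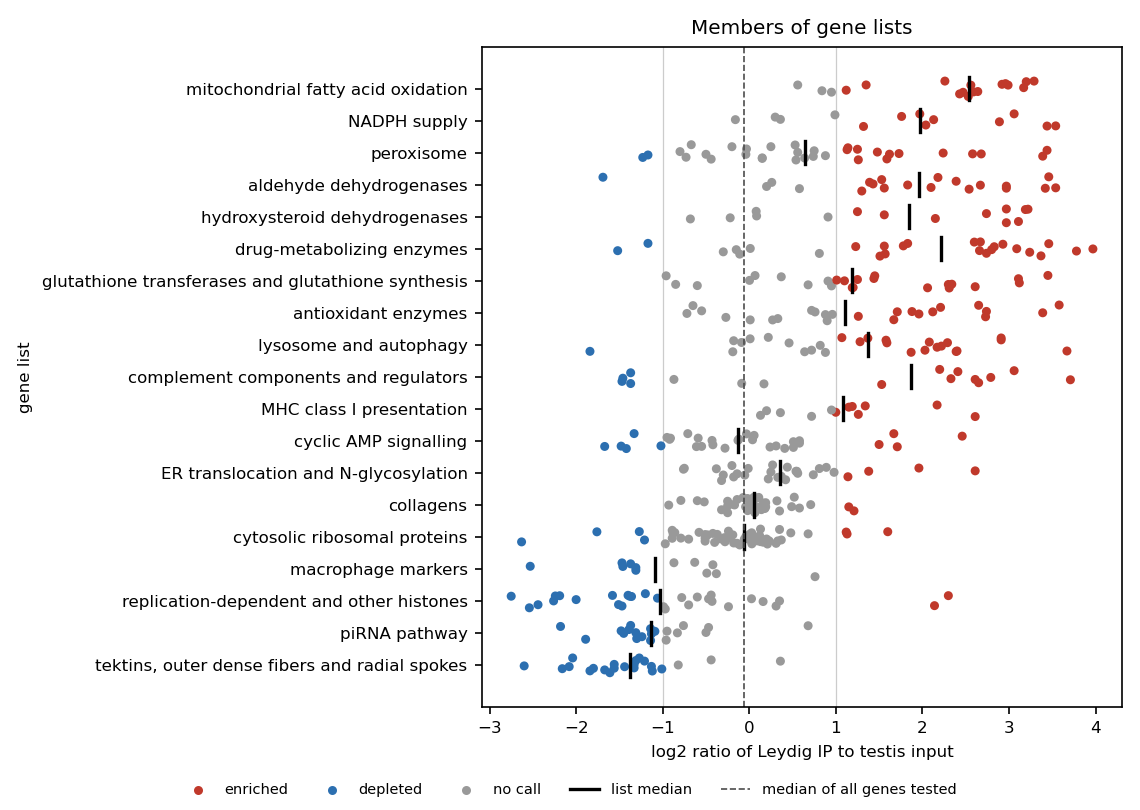
Log2 ratio of Leydig IP to testis input (horizontal axis) for the members of 19 gene lists, 1 point per gene, red for enriched, blue for depleted and gray for no call. Black bars give the list median, the dashed line the median of all genes tested (-0.06), and light lines the 2-fold threshold; fatty acid oxidation has no point below 0, and tektins, outer dense fibers and radial spokes have no enriched member.

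Enzymes that detoxify reactive oxygen, aldehydes and drugs were enriched in several families. Of 20 aldehyde dehydrogenases 16 were enriched and 1, Aldh3b2, was depleted (0.311). Aldh1a7 was enriched 11-fold, Aldh3a1 10.7-fold, Aldh1b1 7.85-fold and Aldh4a1 7.82-fold. The retinal-oxidizing Aldh1a2 (1.19) and Aldh1a3 (1.15) were not called, and the list of retinoid genes as a whole was near the background, with 2 of 17 enriched, led by the retinal reductase Dhrs3 (9.26), and 2 depleted, the retinol carrier Rbp4 (0.448) and the esterifying enzyme Lrat (0.475), whose call was lost without IP 1 or input 1. Of 26 genes listed for drug metabolism 19 were enriched and 2 were depleted. The median ratio was 4.64, or 2.97 when members below the signal filter were included. That list shares Aldh1a1, Aldh1a7, Aldh2 and Aldh3a2 with the aldehyde dehydrogenases and Cyp2d22 and Cyp27a1, among others, with the P450 genes below. It also holds Cyp51, an enzyme of cholesterol synthesis. Ces1d was enriched 15.7-fold (12.36, 12.44 and 12.32 against 8.40, 8.34 and 8.46), Pon3 13.7-fold, the carbonyl reductase Cbr3 10.4-fold and the aldehyde oxidase Aox1 9.42-fold. A related carbonyl reductase, Cbr2, was depleted (0.445).

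The defense against oxidants showed a similar spread. NAD(P)H quinone dehydrogenase Nqo1 had signals of 9.47, 9.41 and 9.56 in the IPs and 6.02, 5.86 and 5.82 in the inputs, a 12-fold enrichment (standard error 0.085 on the log2 scale, limma adjusted p = 1.88e-07). Besides Nqo1 and Cat, the antioxidant list had the peroxidases Gpx8 (6.69) and Gpx1 (6.64) and the peroxiredoxin Prdx3 (6.29) at its top. In all 12 of its 24 genes were enriched and none was depleted. Among 24 genes of glutathione transferase and glutathione synthesis 15 were enriched and none was depleted, led by the mitochondrial and peroxisomal Gstk1 (10.9), Gsta3 (8.69), Mgst1 (8.66), Gsto1 (6.08) and Gstt1 (5.07). The modifier subunit of the rate-limiting ligase, Gclm, had a ratio of 1.00. Genes of the glutathione transferase family are close in sequence, and probes for one can bind transcripts of another.

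The P450 and dehydrogenase families reached beyond testosterone synthesis. Cyp21a1, the steroid 21-hydroxylase known from the adrenal cortex, was enriched 10.1-fold, with signals of 9.86, 9.14 and 9.68 in the IPs and 6.44, 6.06 and 6.16 in the inputs (standard error 0.19 on the log2 scale, limma adjusted p = 2.52e-06). Cyp2j6 was enriched 10.2-fold, the xenobiotic enzyme Cyp2d22 6.97-fold and Cyp27a1, which hydroxylates cholesterol, 6.33-fold. The aldosterone synthase Cyp11b2 (1.07) was not called. Of 34 P450 genes 13 were enriched and 1, Cyp2d26, was depleted (0.309), and without IP 2 there were 2 depleted. Of 14 hydroxysteroid dehydrogenases 9 were enriched and none was depleted. Their median ratio was 3.61, or 1.88 with members below the signal filter included. Besides Hsd17b11 and Hsd17b3 these were led by Hsd3b1 (8.62), the mitochondrial Hsd17b10 (7.84) and Hsd17b7 (7.82), an enzyme of cholesterol synthesis. Hsd17b1 (0.858), Hsd17b2 (0.626) and the cortisol-inactivating Hsd11b2 (1.06) were not called. The aldo-keto reductases added 5 of 8 enriched genes, with Akr1cl (7.63), Akr1b10 (5.49) and Akr1c14 (4.38) at the top.

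General functions of the cell were called less uniformly. For comparison, 12.8% of all genes tested were enriched and 13% were depleted. Of 28 genes of translocation into the endoplasmic reticulum and N-glycosylation 4 were enriched, none depleted, at a median ratio of 1.27. Those 4 were Ssr4 (6.12), Ssr3 (3.88), Sec62 (2.60) and Sec61b (2.20), and the channel subunit Sec61a1 had a ratio of 1.21. Of 24 genes of folding and the unfolded protein response 7 were enriched (29.2%), led by the stress sensors Eif2ak3 (4.99) and Ern1 (4.19) and the disulfide isomerase P4hb (3.32), and Sdf2l1 was depleted (0.412). The chaperones Hspa5 (1.34) and Hsp90b1 (1.17) were not called. Cytosolic ribosomal proteins had a median ratio of 0.961, with 3 of 59 enriched and 4 depleted, and mitochondrial ribosomal proteins of 1.15, with 5 of 77 enriched and 2 depleted. The proteasome list had 6 of 39 enriched (15.4%) and 2 depleted, and it took in Psmc3ip, which is not a proteasome subunit. Of 43 collagens 2 were enriched (Col11a1 at 2.31, which was not called without IP 2, and Col6a1 at 2.22). None was depleted, or 1 without IP 3. Of 20 imprinted genes 2 were enriched, Igf2 (3.13) and Sgce (2.96), and 1 was depleted. Of 93 olfactory receptors, the odorant sensors of the nose, 1 was enriched (1.08%) and 2 were depleted, with a median ratio of 0.963, and only 1 was depleted without IP 1, IP 2, input 2 or input 3. The tubulins (0 of 14 enriched, 4 depleted), the deubiquitinating Usp enzymes (3 of 50, 6 depleted), the Zfp zinc finger proteins (14 of 274, 25 depleted), the small nucleolar RNAs (3 of 26, none depleted) and the beta-defensins (1 of 12, 2 depleted, or 1 depleted without input 3) had median ratios of 0.826, 0.852, 0.935, 1.20 and 0.942.

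Lysosomal genes were enriched in 16 of 27 cases and depleted in 1, with a median ratio of 2.58. The aminopeptidase-like cathepsin Ctsh had signals of 10.73, 10.69 and 10.64 in the IPs and 7.12, 6.97 and 6.96 in the inputs, a 12.7-fold enrichment (standard error 0.077 on the log2 scale). The galactosidase Glb1 was enriched 7.53-fold, Ctsb 7.52-fold, Ctsd 5.27-fold and the protective protein Ctsa 5.23-fold. Ctss, a cathepsin of antigen-presenting cells, was the member depleted, at 0.279. The complement list held members called in both directions. The early components C2 (13.1-fold), C1s1 (8.34-fold) and C1ra (6.90-fold), the receptor-like Cr1l (6.26-fold) and the membrane inhibitor Cd59a (6.10-fold) led 9 enriched genes of 16. The median ratio of the list was 3.65, and 1.08 when members below the signal filter were included. The 3 chains of C1q, C1qa (0.387), C1qb (0.361) and C1qc (0.363), which macrophages make, and the regulator Cd55 (0.387) were depleted. The 3 C1q chains also stand in the macrophage marker list.

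Genes of MHC class I presentation were enriched in 7 of 12 cases, with none depleted. The peptide-trimming Erap1 was enriched 6.09-fold, B2m, the light chain of class I molecules, 4.49-fold (12.32, 12.47 and 12.71 against 10.40, 10.13 and 10.46), the immunoproteasome subunits Psmb9 2.54-fold and Psmb10 2.39-fold, and the transporter Tap1 2.28-fold. Of 21 genes of the interferon response 6 were enriched and none was depleted, among them the receptor chain Ifnar2 (8.66), the transcription factor Irf8 (7.24), Ifitm2 (6.92), Bst2 (3.33) and Stat2 (2.66). Irf8 had signals of 9.63, 10.18 and 9.41 in the IPs and 6.98, 6.95 and 6.72 in the inputs. Irf8 is also known from macrophages. In the same arrays the 12 macrophage markers had ratios from 0.173 (Lyz2) to 1.69, with 6 depleted and 6 not called. Csf1r was at 0.403 and Adgre1 at 0.547, and the part of macrophages in the Irf8 ratio was not tested.

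Among secreted factors, 10 of 28 growth factors and cytokines were enriched and none was depleted. Vegfd, a growth factor for lymphatic vessels, had signals of 10.83, 10.91 and 10.69 in the IPs and 7.23, 7.0 and 7.28 in the inputs, a 12.5-fold enrichment (standard error 0.10 on the log2 scale, limma adjusted p = 2.36e-07). Wnt5a was enriched 7.43-fold, Pdgfd 5.04-fold, the interleukin Il18 4.47-fold and Bmp6 4.14-fold. Vegfa (1.12), Tgfb1 (1.18) and Fgf9 (1.13) were not called. In the insulin and IGF system 8 of 19 genes were enriched and none was depleted: the binding protein Igfbp2 led with 7.61, followed by the adaptor Irs1 (6.91), Igfbp7 (5.58), Grb14 (4.60) and the receptor Igf1r (4.01). The ligand Igf1 had a ratio of 0.588, with IP signals of 5.86, 5.61 and 5.86 below all the inputs (6.51, 6.62 and 6.5), short of the 2-fold threshold. Of 10 laminins 5 were enriched, Lamb2 (3.90), Lamb1 (3.75), Lamc1 (3.41), Lama4 (3.32) and Lamc3 (2.33).

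Cyclic AMP, the second messenger of LH, was represented by a list near the background. Of 31 genes 4 were enriched (12.9%) and 5 were depleted (16.1%), against 12.8% and 13% of all genes, and the median ratio was 0.913. The phosphodiesterase Pde8b was enriched 5.49-fold (9.02, 8.84 and 9.01 against 6.43, 6.52 and 6.55), the catalytic subunit Prkacb 3.26-fold, the cyclase Adcy9 3.19-fold and the regulatory subunit Prkar2b 2.84-fold. The soluble cyclase Adcy10 (0.314) and the factor Crem (0.373), both known from germ cells, and the phosphodiesterases Pde3b (0.359), Pde7a (0.397) and Pde4a (0.494) were depleted. Of 34 transcription factors of gonadal somatic cells 10 were enriched, led by the estrogen receptor Esr1 (12.2), Nr5a1, the master regulator of steroidogenic genes (5.98), Stat5b (4.40), Nr2f2 (4.1) and Gata4 (3.84). Klf4 (0.319) and Nr4a1 (0.390) were depleted, and the glucocorticoid receptor Nr3c1 (1.89) was not called.

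Transporters were described as families. Of 285 solute carriers 63 were enriched (22.1%) and 25 were depleted (8.77%). The glutamine carrier Slc38a1 was enriched 12.3-fold, Slc7a8, an exchanger of neutral amino acids, 9.30-fold, Slc45a3 9.15-fold, the cystine importer Slc7a11 8.28-fold and Slc46a3 6.95-fold. For Slc38a1 the IP signals ranged from 9.32 to 10.02 and the input signals from 5.51 to 6.38, with no overlap. Of 43 ABC transporters 9 were enriched, led by the cholesterol exporter Abca1 (8.16) and by Abcc4 (4.45), and 6 were depleted, led by Abcg2 (0.260).

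Lists of sperm structure and meiosis held most of their calls on the depleted side, where 12.8% of all genes tested were enriched and 13% depleted. In the list of tektins, outer dense fibers and radial spokes 19 of 22 genes were depleted and none was enriched, with a median ratio of 0.383. The list also holds genes outside these families, such as Efhc2 and Akap4, and Akap4 is counted among the spermatid markers as well. The lowest were Ropn1 (0.165), Efhc2 (0.224), Odf3 (0.236), Tekt2 (0.244) and Tekt3 (0.280). Of 20 piRNA pathway genes, which silence transposons in the germ line, 13 were depleted, among them Gtsf1 (0.220), Mael (0.269), Tdrkh (0.359), Piwil1 (0.367) and Tdrd1 (0.381), and none was enriched. The synaptonemal complex gene Sycp3 had signals of 8.06, 8.03 and 8.27 in the IPs and 10.32, 10.07 and 10.29 in the inputs, a ratio of 0.232. Of 30 histone genes 15 were depleted, led by H2bl1 (0.149), H2ap (0.172) and the testis form H2bc1 (0.185), and 2 were enriched, H1f2 (4.92) and H2bc4 (4.41). The Adam proteases had 17 of 31 depleted, with Adam24 the lowest at 0.198, and 3 enriched (9.68%), Adam23 (7.57), Adam10 (3.19) and Adam9 (2.19). Of 37 kinesins 13 were depleted (35.1%), led by the mitotic Kif20a (0.297) and Kif18b (0.30). The 4 enriched kinesins (10.8%) were Kif1c (3.09), Kif5b (2.87), Kif3c (2.42) and Kif1b (2.09). Both enriched shares lay below that of all genes. Of 19 axonemal dyneins 7 were depleted and 1, Dnah9, was enriched (3.52, with 8.30, 8.14 and 8.20 against 6.36, 6.5 and 6.32).

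RNAs that are not translated were counted separately. Of 10 nuclear and other non-coding RNAs 3 were depleted and none was enriched, against 13% and 12.8% of all genes tested. For the small nucleolar RNAs, given above, 3 of 26 were enriched (11.5%), near the share of all genes, and none was depleted. The RNA of RNase P, Rpph1, had a ratio of 0.258 (9.26, 10.30 and 9.21 against 11.62, 11.51 and 11.51), that of RNase MRP, Rmrp, 0.314, and the Y RNA Rny3 0.437. The nuclear Malat1 had a ratio of 1.03 with overlapping arrays (10.26, 10.68 and 10.61 against 10.66, 10.36 and 10.38). Of 98 microRNA genes 2 were enriched and none was depleted, and the probes do not tell a mature microRNA from its precursor or host transcript.

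Many enzymes have a further gene that germ cells use in place of the one active in other tissues, and the 2 copies gave a contrast within a function. The copies were listed for known germ cell use, so their direction against a testis input was largely set by that choice. The list also takes in family relatives that are not plain replacements, such as Eif4g3, Tbpl1 and Actl7b. Of 27 germ cell copies 22 were depleted and none was enriched (median ratio 0.368), and of 23 widely expressed copies 13 were enriched and 2 were depleted, Dnajb1 (0.495) and Tbp (0.336), with a median of 2.19. In 21 of 22 pairs with both copies tested, the widely expressed one had the higher ratio, the exception being Tbpl1 (0.529) and Tbp. For the alpha subunit of pyruvate dehydrogenase, the germ cell copy Pdha2 read 6.98, 6.90 and 7.09 in the IPs and 8.52, 8.73 and 8.58 in the inputs (ratio 0.325). Its counterpart Pdha1 read 10.24, 10.24 and 10.41 against 7.68, 7.62 and 7.87 (ratio 5.96). A gap of the same kind was present between the cytochrome oxidase subunits Cox7b2 (0.155) and Cox7b (7.80), the ADP/ATP carriers Slc25a31 (0.218) and Slc25a5 (5.44), the ribosomal proteins Rpl10l (0.296) and Rpl10 (3.04), and the phosphoglycerate kinases Pgk2 (0.450) and Pgk1 (4.38). It was narrow for lactate dehydrogenase, where Ldhc had a ratio of 0.492 and Ldha of 0.767.

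**Figure D3:**
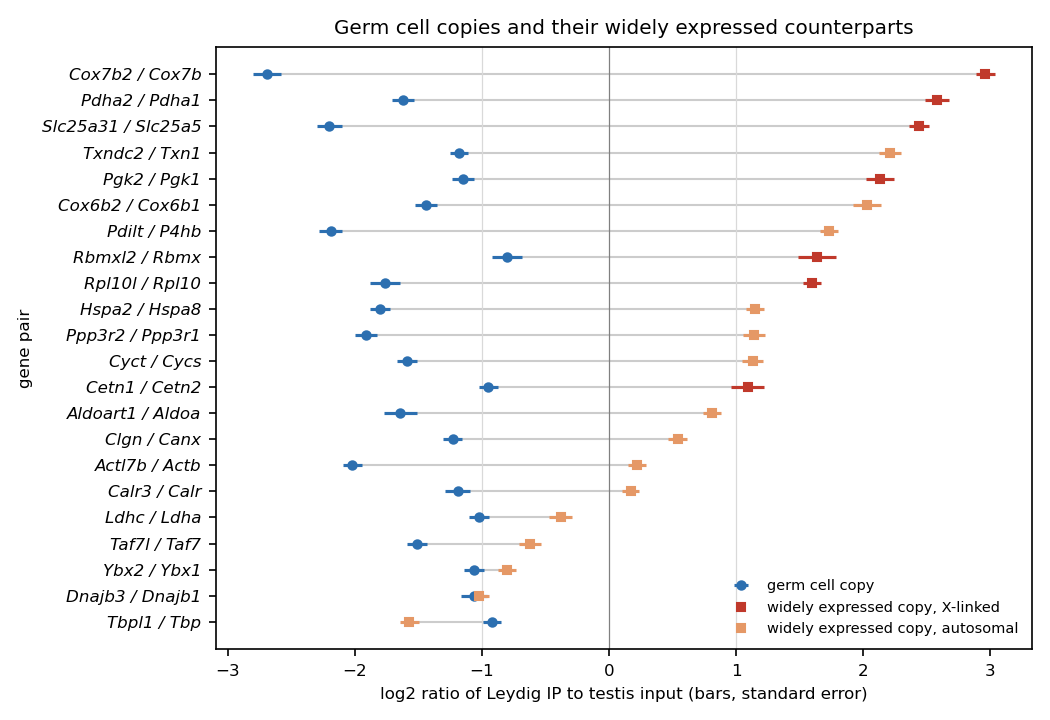
Log2 ratio of Leydig IP to testis input (horizontal axis, bars are standard errors) for the 22 gene pairs with both copies tested, circles for the germ cell copy and squares for the widely expressed copy, in red where that gene is X-linked. The square lies to the right of the circle in 21 pairs, and all 7 X-linked squares lie past the 2-fold line.

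X-linked genes were enriched more often than autosomal ones, although most enriched genes were autosomal (1807 of 1985). As background, the X chromosome is silenced in male germ cells at meiosis. Of 512 X-linked genes tested 176 were enriched (34.4%) and 85 depleted (16.6%), with a median log2 ratio of 0.39. Of 14940 autosomal genes 12.1% were enriched and 12.8% depleted, with a median of -0.07, and no single autosome passed 18.3% (chromosome 3). The pattern was also present in the Sertoli IPs, at 39.8% of X-linked and 14.2% of autosomal genes, so it was not particular to Leydig cells. Among the widely expressed copies above, 7 of 7 on the X were enriched, against 6 of 16 on autosomes. These genes were picked for having a germ cell copy, so that share is no independent support. Rpl10 and Cox7b are among these 7 and are counted again in the next 2 lists. The 3 enriched cytosolic ribosomal protein genes, Rpl10, Rps4x (2.18) and Rpl36a (2.17), were all 3 of those tested on the X, while none of 56 autosomal ones was enriched. Of the respiratory chain genes 15 of 74 were enriched, including all 3 on the X, Cox7b, Ndufb11 (5.73) and Ndufa1 (4.26), and 12 of 71 on autosomes. The X-linked side of the depleted genes held Dusp21, Ppp4r3c-ps, Spaca5 and Fam122c, 4 of the 15 genes with the largest depletion.

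**Figure D4:**
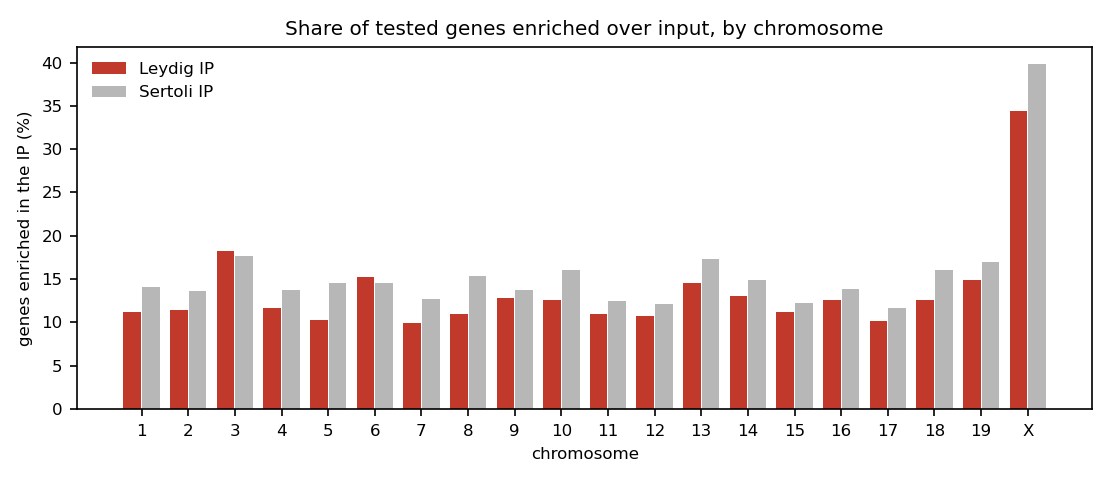
Share of tested genes enriched in the IP over input (vertical axis, percent) for each autosome and the X chromosome, in red for Leydig IPs and in gray for Sertoli IPs. The X chromosome reaches 34.4% and 39.8%, while Leydig values for autosomes stay at or below 18.3%.

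Promoters were compared for 3 short motifs on both strands, over RefSeq windows of 300 bases (250 before and 50 after a start, mouse build GRCm38.p6). A window was at hand for 12282 of the 15521 genes tested, with 15459 windows in all because a gene may have several. CAAGGTCA, a site that Nr5a1 binds, was in 1.33% of windows of enriched genes, 0.884% of depleted genes and 1.15% of all. TGACGTCA, the cyclic AMP response element, was in 1.87%, 2.99% and 2.76%. CATGGCAAC, part of the X-box that Rfx factors bind, was in 0.443% of windows of enriched genes (9 of 2031), 2.01% of depleted genes (41 of 2037) and 0.796% of all. The letters of the 3 motifs differ, overlap between their matches was not examined, and these shares are descriptions without a test. The upstream 250 bases of 2 genes per motif, chosen after their values were seen, are shown with the match in capitals, for CAAGGTCA (Lifr and Dhcr7, enriched 7.49-fold and 7.17-fold) and for CATGGCAAC (Apobec4 and Actrt1, ratios 0.113 and 0.213). Lifr is the receptor for leukemia inhibitory factor, Dhcr7 the last enzyme of cholesterol synthesis, and Actrt1 an actin-related protein of the sperm head.
Lifr, chr15:7129322-7129571, plus strand: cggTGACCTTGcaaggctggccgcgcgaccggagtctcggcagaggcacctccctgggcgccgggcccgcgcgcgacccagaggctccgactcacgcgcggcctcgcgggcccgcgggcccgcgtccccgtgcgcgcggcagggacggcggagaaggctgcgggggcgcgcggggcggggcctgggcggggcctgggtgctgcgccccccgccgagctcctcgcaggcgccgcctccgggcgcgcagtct
Dhcr7, chr7:143822917-143823166, plus strand: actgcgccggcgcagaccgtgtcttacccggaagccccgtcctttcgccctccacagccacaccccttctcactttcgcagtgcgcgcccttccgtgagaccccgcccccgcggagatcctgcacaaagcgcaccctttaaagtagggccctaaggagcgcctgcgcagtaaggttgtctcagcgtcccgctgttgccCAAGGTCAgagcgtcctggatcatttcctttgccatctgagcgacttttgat
Apobec4, chr1:152750301-152750550, plus strand: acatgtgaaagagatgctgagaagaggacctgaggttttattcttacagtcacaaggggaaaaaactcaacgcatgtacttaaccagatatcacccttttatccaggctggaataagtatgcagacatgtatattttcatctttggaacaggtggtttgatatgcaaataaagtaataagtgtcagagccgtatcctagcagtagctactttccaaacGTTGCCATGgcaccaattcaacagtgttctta
Actrt1, chrX:46328757-46329006, plus strand: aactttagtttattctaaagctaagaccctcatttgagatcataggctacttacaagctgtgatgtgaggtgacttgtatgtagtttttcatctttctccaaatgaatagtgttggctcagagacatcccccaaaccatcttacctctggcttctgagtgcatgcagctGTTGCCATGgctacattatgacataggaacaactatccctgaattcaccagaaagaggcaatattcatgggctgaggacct
The match lies 52 to 45 bases before the start in Dhcr7, on the strand of the gene, and 32 to 24 bases before it in Apobec4, on the opposite strand. In Lifr and Actrt1 it also lies on the opposite strand, at 247 to 240 and 81 to 73 bases before the start.

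Which of these enrichments set Leydig cells apart was tested as the difference between the log2 ratios of the 2 Cre lines (limma on 16 arrays, adjusted p under 0.05 and a difference of at least 1). Of 15918 genes 1088 had a higher ratio in Leydig cells (6.84%) and 1272 a lower one (7.99%). Of the 1985 genes enriched in Leydig IPs, 887 had a higher ratio than in Sertoli IPs, 889 were enriched in both and 98 were depleted in Sertoli IPs, where 15.1% of tested genes were enriched and 13.6% depleted. Of the 2017 depleted genes, 1649 were depleted in both and none was enriched in Sertoli IPs. The 2 log2 ratios correlated at 0.627 over 15521 genes, as a description, with genes not being independent.

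The functions differed in how far they were shared. Tagged Sertoli cells may add to the Leydig IPs, and their part in the ratios shared by both lines was not tested. In fatty acid oxidation 11 of 18 genes had a higher ratio in Leydig cells, and the Sertoli median was 1.80. Cpt1a was at 6.22 in Leydig and 5.25 in Sertoli IPs, a difference that was not called (log2 0.24, standard error 0.11, adjusted p = 0.0888 in limma). Decr1 was at 7.78 and 1.24. In NADPH supply 5 of 13 were higher in Leydig cells and 1 lower, with Idh2 at 8.34 and 0.736, a difference of 3.50 on the log2 scale (standard error 0.13, limma adjusted p = 9.39e-12). Drug-metabolizing enzymes had 16 of 26 higher, against a Sertoli median of 0.786, and complement 9 of 16, against 0.444. Nqo1 was at 12 and 0.593 (difference 4.33, standard error 0.20, limma adjusted p = 7.84e-11). Lysosomal genes had 7 of 27 higher and 1 lower. Lipa, at 4.22 and 6.94, and Ctsa, at 5.23 and 4.59, were not among these, their differences being below the threshold. For germ cell structure the lines did not differ by the test in any of the 22 genes of the tektin, outer dense fiber and radial spoke list or the 20 piRNA genes.

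Lhcgr, named only through the study's list, had a difference of 5.78 on the log2 scale. Among genes that the platform annotation names, the 6 with the largest difference toward Leydig cells were Ces1d (6.36 on the log2 scale), the cystatin-like Cstdc2 (6.16), Klk1b24 (5.83), the fatty acid transporter Cd36 (5.69), the estrogen sulfotransferase Sult1e1 (5.52) and Pon3 (5.51). For Cd36 the Leydig ratio was 11.4, with signals of 12.40, 12.44 and 12.34 in the IPs and 9.10, 8.84 and 8.71 in the inputs, and the Sertoli ratio was 0.222. Toward Sertoli cells the 6 were Plppr5 (-3.02), Tmem114 (-2.86), the calpain-like Capn6 (-2.82), the laminin receptor Itga6 (-2.80), the heparanase Hpse (-2.76) and the glucose transporter Slc2a12 (-2.76). None of these 6 was called in Leydig IPs, and their ratios there ran from 0.856 to 1.18. For Itga6 the Leydig IPs read 7.51, 7.88 and 8.03 and the inputs 7.70, 7.61 and 7.70, overlapping, while the Sertoli ratio was 7.66.

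**Figure D5:**
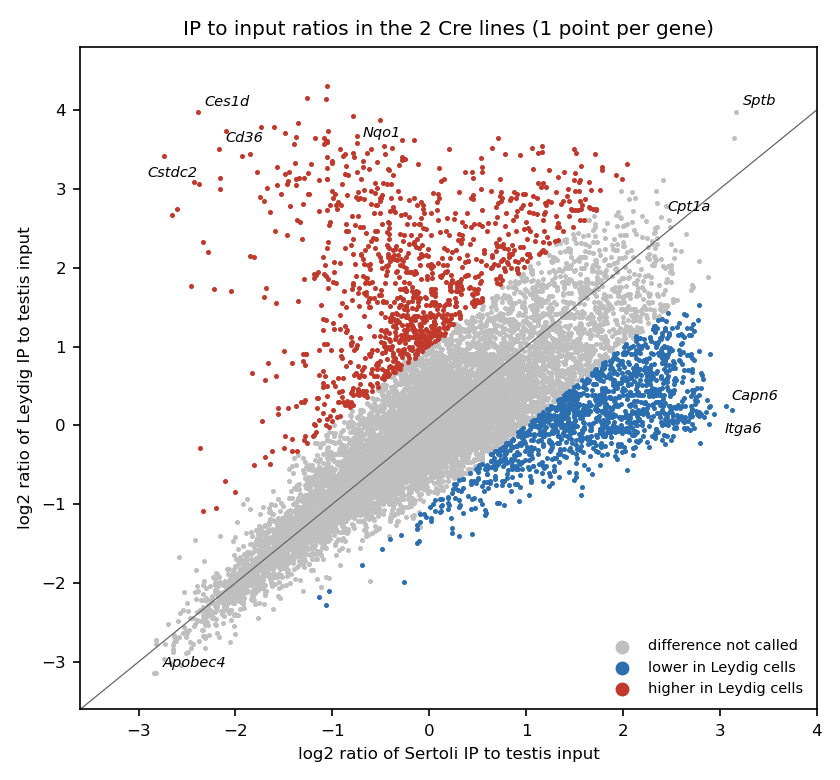
Log2 ratio of IP to input in Leydig cells (vertical axis) against that in Sertoli cells (horizontal axis), 1 point per gene, red where the difference was higher and blue where it was lower in Leydig cells, with the line of equal ratios. Depleted genes follow the line at the lower left, Ces1d, Cstdc2 and Cd36 sit at the upper left, and Sptb lies near the upper right corner.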

How the data were processed

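Values were log2 signals made by the authors by RMA from Affymetrix Mouse Gene 1.0 ST arrays and deposited as 1 table for all 32 arrays. RNA was labeled from equal amounts after amplification, so depth does not apply and the number of arrays limits the precision. Probe sets were named from the platform annotation: of 35556, 21789 had 1 symbol, 1621 several and 12146 were not listed. A further 145 were named only by the study's list of enriched transcripts, and 72 list members, 26 of them on that list, had no probe set naming 1 gene. These stay out of all list counts, since a list of enriched transcripts would add members in 1 direction only. Probe sets with a linear signal above 50 in any of the arrays compared were tested with limma 3.58.1 in R 4.3.3 (24705 tested), Benjamini-Hochberg adjusted, and 1 probe set was kept per gene. The 3 Leydig IPs and 3 inputs entered the main fit. The difference from Sertoli cells was the interaction over 16 saline arrays. The code was tested on simulated data.

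Named were the markers and Cyp17a1, the 15 genes with the largest change each way (names such as Gm or Rik left out), up to 5 members of a list in its more frequent direction and 4 in the other, 6 genes each way for the difference, the gene pairs, and members with a known role that did not pass. Members and lists were chosen with earlier results of these data known. Lists are described by counts and medians. Alternatives were the filter, scaling, quantile normalization, the variance model, p adjustment, further arrays, a replicate block and leaving out each array. The study compared IPs with their respective inputs, but the labels do not say that equal numbers mark them. Same-numbered IPs and inputs had deviations correlating at 0.149, 0.0237 and 0.0454 in Leydig arrays, and were not taken as pairs in the main fit. Counts with the replicate number as a block are given below.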

Additional observations from a re-analysis of the deposited data

Results flagged for a closer look

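The difference between Leydig and Sertoli enrichment was tested directly (limma, 16 arrays), and the 6 genes each way with the largest difference among those the platform annotation names are given. Lhcgr, named only through the study's list, is not among them and had a difference of 5.78. Toward Leydig cells the log2 differences were 6.36 for Ces1d, 6.16 for Cstdc2, 5.83 for Klk1b24, 5.69 for Cd36, 5.52 for Sult1e1 and 5.51 for Pon3. Toward Sertoli cells they were -3.02 for Plppr5, -2.86 for Tmem114, -2.82 for Capn6, -2.80 for Itga6, -2.76 for Hpse and -2.76 for Slc2a12.

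Among 24 groups of Sertoli arrays checked for these 12 genes, 2 held an array far from the others. One Sertoli IP stood apart for Cd36 at a log2 signal of 6.71, and one Sertoli input for Hpse at 7.97. Chance alone marks about 1 in 20 such groups, and the Leydig groups of 3 arrays were not examined this way.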

How the results depend on the processing

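The counts over all genes stayed within 1.5 times their value under every alternative run. Enriched genes ranged from 1921 (median-centered arrays) to 1991 (no filter) and depleted genes from 1971 (quantile normalized again) to 2077 (median-centered arrays). With 1 array left out, they ranged from 1942 to 2012 and from 1973 to 2092, X-linked enriched genes from 168 to 179, and genes with a higher or lower ratio than in Sertoli cells from 1082 to 1112 and from 1239 to 1292. With the replicate number as a block, 1985 genes were enriched and 2017 depleted, and 1086 and 1272 differed from Sertoli cells, so the block moved no count by over 1.5 times. No named gene reversed. The depletion calls of Dnajb1, Ldhc, Lrat and Pde4a and the enrichment call of Col11a1 were lost under at least 1 alternative, and Nnt, Acad9 and Nr3c1 passed under at least 1. For the difference from Sertoli cells, 8 named genes lost their call (Cr1l, Ndufa1, Malat1, Ndufb11, Ssr4, Adam9, Col11a1 and Prkar2b) and 8 gained one (H1f2, Nnt, Rmrp, Rpl10, Grb14, Psmb10, Kif3c and Nr3c1). Gene lists were less stable than the totals. Of 54 list medians 37 moved by more than the spread between the IPs in at least 1 alternative (107 of 864 values), and 9 of 108 list counts moved by over 1.5 times (15 of 1728 values). Without the signal filter, which adds members of low signal, the median log2 ratio fell from 1.87 to 0.11 for complement, from 1.72 to 0.18 for aldo-keto reductases, from 1.85 to 0.91 for hydroxysteroid dehydrogenases and from 2.21 to 1.57 for drug-metabolizing enzymes. With a mean over 50 required, it was 2.44 for hydroxysteroid dehydrogenases and no microRNA was enriched.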
